A study of Mus musculus with 24 samples.

Results

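Transcripts of 7 genes of cholesterol synthesis and its regulation were followed in 4 tissues of liver-specific *Crif1*-deficient mice. The genes were *Hmgcs1*, *Idi1*, *Fdps*, *Sqle*, *Srebf2*, *Insig1* and *Stard4*. They were taken by symbol from a table of 24532 genes, and all 7 were found, each at a single place in the genome. The mice were C57BL/6 and, by the table's column headers, 8 weeks of age, at which the study describes chow feeding. Ctrl mice were Crif1flox/flox, and LKO mice were Alb-Cre;Crif1flox/flox, so both groups carried the floxed allele, and in LKO mice an albumin-driven Cre, which acts in hepatocytes, removed the gene. RNA from liver, inguinal white adipose tissue (iWAT), gastrocnemius muscle (GM) and hypothalamus was sequenced, with 3 libraries of each genotype in each tissue and 24 libraries in all. Libraries are named by genotype and replicate number, as in Ctrl 1. The labels do not state that same-numbered libraries share a mouse.

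Cells make cholesterol from acetyl-CoA through mevalonate, isoprenoid diphosphates, squalene and lanosterol. The pathway is controlled mainly at transcription by SREBP-2, a membrane-bound factor that SCAP carries from the endoplasmic reticulum to the Golgi for cleavage when sterols are scarce, and that INSIG proteins hold back when sterols are plentiful. The liver makes cholesterol for lipoproteins and bile as well as for its own membranes, whereas the brain relies on local synthesis, because lipoproteins do not cross the blood-brain barrier. *Hmgcs1* encodes the cytosolic HMG-CoA synthase, *Idi1* the isomerase of isopentenyl diphosphate, *Fdps* farnesyl diphosphate synthase, and *Sqle* squalene epoxidase. *Srebf2* encodes SREBP-2, *Insig1* a sterol-regulated retention protein for SCAP, and *Stard4* a soluble sterol carrier.

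Promoter windows were present for 4 of the 7 genes in the RefSeq table used (build GRCm38.p6, the same assembly as mm10), and *Sqle*, *Fdps* and *Stard4* had none. The 250 bases before the annotated start are shown, because SREBP-2 and the factor NF-Y are known to bind near the start of genes of this pathway. Capitals mark TCACNCCA and CACNCCAC, the letters of the sterol regulatory element in overlapping forms, and CCAAT, the letters of the NF-Y box, each on either strand. The windows are *Hmgcs1* at chr13:119690101-119690350, *Idi1* at chr13:8885356-8885605, *Srebf2* at chr15:82147019-82147268 and *Insig1* at chr5:28071162-28071411, all on the plus strand and written from 5′ to 3′.
*Hmgcs1*: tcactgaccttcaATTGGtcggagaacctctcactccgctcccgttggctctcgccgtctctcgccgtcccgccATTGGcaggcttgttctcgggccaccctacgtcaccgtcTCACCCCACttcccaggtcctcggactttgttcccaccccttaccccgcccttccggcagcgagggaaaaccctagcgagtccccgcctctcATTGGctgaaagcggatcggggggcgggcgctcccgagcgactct
*Idi1*: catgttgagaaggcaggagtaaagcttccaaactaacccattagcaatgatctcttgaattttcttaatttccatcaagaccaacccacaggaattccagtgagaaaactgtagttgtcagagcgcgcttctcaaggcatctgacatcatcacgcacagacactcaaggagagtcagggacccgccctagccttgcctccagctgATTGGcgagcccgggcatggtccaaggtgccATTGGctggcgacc
*Srebf2*: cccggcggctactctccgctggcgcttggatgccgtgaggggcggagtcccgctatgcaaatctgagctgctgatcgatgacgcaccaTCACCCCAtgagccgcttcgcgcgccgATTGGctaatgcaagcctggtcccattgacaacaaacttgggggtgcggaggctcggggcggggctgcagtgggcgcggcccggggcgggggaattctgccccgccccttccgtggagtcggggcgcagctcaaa
*Insig1*: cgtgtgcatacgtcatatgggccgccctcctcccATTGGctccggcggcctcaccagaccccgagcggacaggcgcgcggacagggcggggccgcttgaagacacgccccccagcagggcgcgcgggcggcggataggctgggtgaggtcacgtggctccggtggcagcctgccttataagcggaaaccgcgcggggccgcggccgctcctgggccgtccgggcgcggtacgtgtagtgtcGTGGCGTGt

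A CCAAT box was found in each of the 4 windows, with 3 matches for *Hmgcs1*, 2 for *Idi1* and 1 each for *Srebf2* and *Insig1*. Of all 32851 promoter windows of this length in the table, 33.8% held one. TCACNCCA was found once each in the windows of *Hmgcs1* and *Srebf2*, and in 3.67% of all windows. CACNCCAC was found in the windows of *Hmgcs1*, where it overlapped the other form, and *Insig1*, and in 5.29% of all windows. Neither form was in the window of *Idi1*. The GC box GGGCGG, which is not marked, had 2 matches for *Hmgcs1*, 1 for *Idi1*, 4 for *Srebf2* and 3 for *Insig1*, and 32.7% of all windows held it. These are matches of letters, and no binding was measured.

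Values are FPKM, fragments counted per length of transcript and per library size, so that levels can be set against each other across genes. On mm10 the annotated spans are *Hmgcs1* (NCBI Gene 208715) at chr13:119690351-119708260 and *Idi1* (319554) at chr13:8885606-8892396, *Sqle* (20775) at chr15:59315092-59331193 and *Srebf2* (20788) at chr15:82147269-82204960, and *Insig1* (231070) at chr5:28071412-28078662, all on the plus strand. *Fdps* (110196) at chr3:89093588-89101967 and *Stard4* (170459) at chr18:33199138-33213862 are on the minus strand. The depth of the libraries was 4.45 to 8.09 gigabases. *Crif1*, listed as *Gadd45gip1*, was at 12.5 to 14.6 FPKM in Ctrl livers and at 5.4, 2.0 and 2.51 FPKM in LKO 1, LKO 2 and LKO 3, so LKO 1 kept the highest level of the deleted gene. Each tissue carried its own markers: the summed hepatocyte markers were at least 43229 FPKM in liver, and the adipocyte markers at least 19613 FPKM in iWAT. In liver, the summed level of 5 macrophage markers was 106 to 111 FPKM in Ctrl and 234 to 362 FPKM in LKO mice. That of 5 monocyte and neutrophil markers was 1.78 to 2.09 and 10.1 to 13.2 FPKM, and that of 4 epithelial markers was 192 to 284 and 668 to 783 FPKM. Nearly all of the epithelial sum was *Krt8* (108 to 152 and 383 to 463 FPKM) and *Krt18* (82.6 to 131 and 284 to 323 FPKM). *Epcam* was at 0.618 to 0.857 and 1.39 to 2.23 FPKM and *Krt14* at 0, so the sum does not by itself show a separate cell type. In iWAT the macrophage sum was 625 to 1650 FPKM in Ctrl and 625 to 835 FPKM in LKO mice. The part of cells of these types in the values below was not tested.

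In Ctrl mice the 7 transcripts were ordered differently across tissues, and GM had the lowest mean for each of them. *Idi1*, *Fdps* and *Stard4* were higher in liver than in any other tissue, beyond their spread. *Fdps* reached 293, 169 and 211 FPKM in Ctrl liver, against 27 to 49.0 in iWAT, 16.9 to 21.7 in GM and 58.6 to 72.5 in hypothalamus. *Idi1* was at 46.7 to 80.5 FPKM in liver, 8.90 to 15.9 in iWAT, 2.57 to 3.83 in GM and 13.7 to 15.3 in hypothalamus. *Stard4* was at 17.4 to 20.8 FPKM in liver, 2.45 to 2.52 in iWAT, 0.836 to 1.28 in GM and 5.65 to 7.58 in hypothalamus. The liver groups of these 3 genes did not overlap with those of any other tissue. The share of all genes of which this holds was not counted, and 71.7% to 87.7% of all genes differed between liver and another tissue. *Srebf2* instead was highest in hypothalamus, at 46.7 to 54.0 FPKM against 15.4 to 19.8 in liver, 15.5 to 19.4 in iWAT and 4.61 to 7.28 in GM. *Sqle* was at 24.3 to 38 FPKM in liver and 29.6 to 32.4 in hypothalamus, and at 5.20 to 11 in iWAT and 1.10 to 2.27 in GM. *Insig1* was high in liver (123 to 169.8 FPKM) and iWAT (100.1 to 148 FPKM), lower in hypothalamus (33.4 to 39.2) and lowest in GM (6.22 to 8.89). *Hmgcs1* was at 69.3 to 175 FPKM in liver, 70.2 to 104 in iWAT and 67.4 to 76.7 in hypothalamus, and at 11.4 to 13.8 in GM.

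The order was tested with limma on log2(FPKM + 1) over the 12 Ctrl libraries, with p-values adjusted by the Benjamini-Hochberg method over 15320 genes in each of the 6 tissue pairs. Of all genes, 79.8% differed between liver and iWAT, 71.7% between liver and GM, 87.7% between liver and hypothalamus, 76.6% between iWAT and GM, 80.9% between iWAT and hypothalamus and 85.7% between GM and hypothalamus. The median log2 difference of all genes was -0.607 for liver minus iWAT, -0.096 for liver minus GM and -0.98 for liver minus hypothalamus. It was 0.481 for iWAT minus GM, -0.267 for iWAT minus hypothalamus and -0.859 for GM minus hypothalamus. The levels and differences of single genes are given without subtracting these medians. Neighbours that did not differ beyond their spread were liver and iWAT for *Hmgcs1* (log2 difference 0.43, adjusted p = 0.157), *Insig1* (0.25, adjusted p = 0.208) and *Srebf2* (0.08, adjusted p = 0.667). The same held for iWAT and hypothalamus for *Hmgcs1* (0.16, adjusted p = 0.592) and *Idi1* (iWAT lower by 0.39 on the log2 scale, adjusted p = 0.127), for liver and hypothalamus for *Sqle* (0.06, adjusted p = 0.828), and for *Hmgcs1* in liver and hypothalamus (0.59, adjusted p = 0.0534). In all, 35 of 42 pairs differed, those not named here with an adjusted p of at most 0.00739. In whole tissue, fewer cells of a type and less RNA per cell cannot be told apart.

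**Figure D1:**
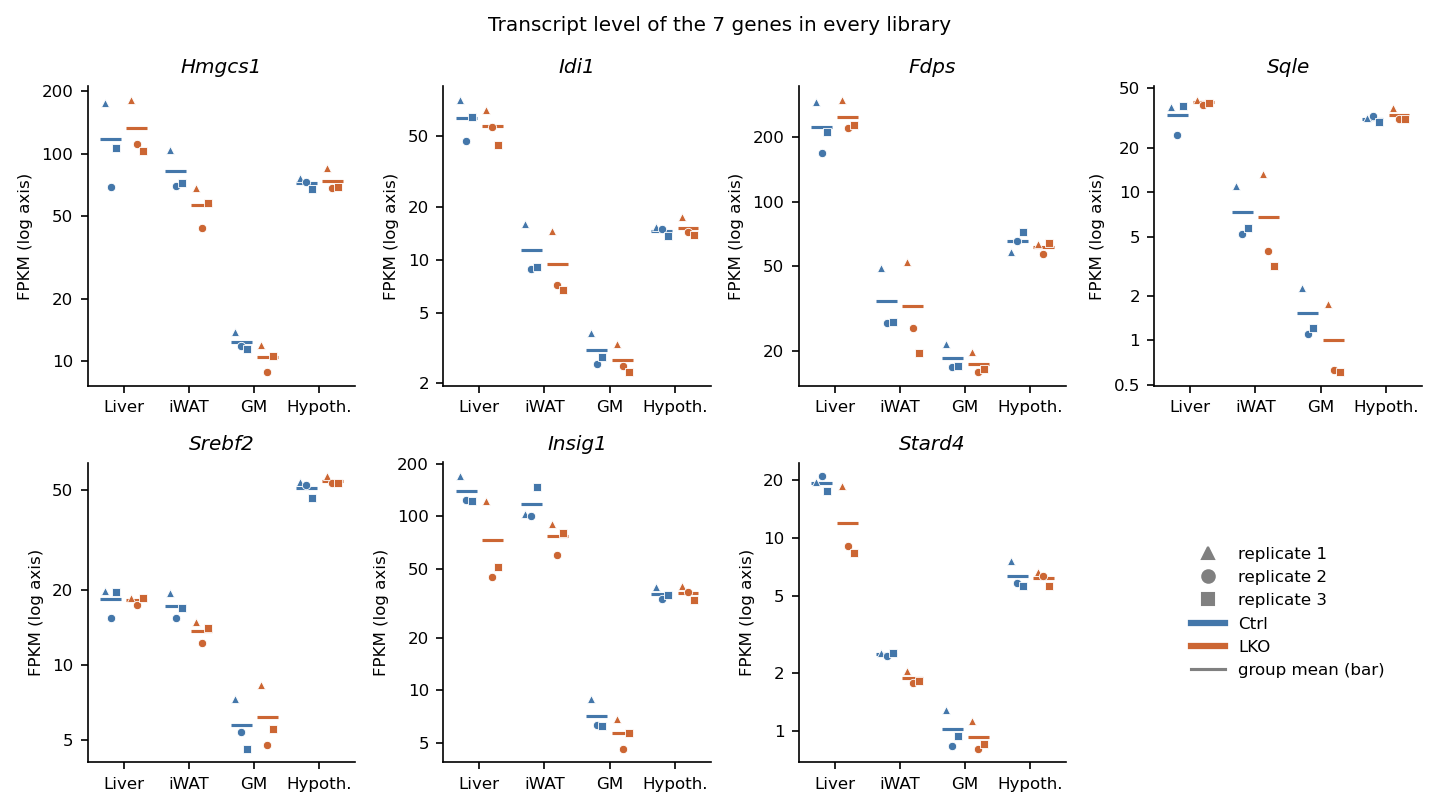
FPKM of the 7 genes in each of the 24 libraries, on log axes, with 1 panel per gene. Blue symbols are Ctrl and orange symbols LKO mice, the shape gives the replicate number, and bars are group means (n = 3). In liver LKO 1 lies above LKO 2 and LKO 3 for *Insig1* (123 against 44.7 and 51.0 FPKM) and *Stard4* (18.5 against 9.06 and 8.34 FPKM).

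In liver the 4 enzyme transcripts did not pass the test between LKO and Ctrl mice, and the 2 that fell past a fold change of 1.5 with an unadjusted p under 0.05 were *Insig1* and *Stard4*. None was higher past that criterion. Among all 10956 genes tested in liver, 28.9% passed it, 25.2% as higher and 3.75% as lower in LKO mice. Tests were made with limma on log2(FPKM + 1), for genes that reached 1 FPKM in 3 or more of a tissue's 6 libraries. The count of 2 lower genes became 0 without Ctrl 1, LKO 2 or LKO 3, and 1 without Ctrl 2.

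*Hmgcs1*, the entry enzyme among the 7, was at 175, 69.3 and 107 FPKM in Ctrl and at 182, 112 and 103 FPKM in LKO livers. The spread within the Ctrl group, with its highest library 2.53 times its lowest, was wider than the difference between the means of 117 ± 53.7 and 132 ± 43.3 FPKM (SD, n = 3 each). The log2 fold change of *Hmgcs1* was 0.23 (standard error 0.35, limma adjusted p = 0.601). *Idi1* was at 80.5, 46.7 and 64.1 FPKM in Ctrl and at 70.0, 56.3 and 44.5 FPKM in LKO livers, and *Fdps* at 293, 169 and 211 and at 300.4, 220.4 and 228 FPKM. The groups overlapped for both, with log2 fold changes of -0.15 (limma adjusted p = 0.598) and 0.18 (adjusted p = 0.514). *Sqle*, which acts on squalene, was at 37.5, 24.3 and 38 FPKM in Ctrl and at 42.1, 38.5 and 40.2 FPKM in LKO livers. All LKO libraries lay above all Ctrl libraries for *Sqle*, as they did for 53% of all genes tested in liver, and the log2 fold change of 0.29 (standard error 0.18) had an adjusted p of 0.200 from limma.

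*Srebf2* was at 19.8, 15.4 and 19.6 FPKM in Ctrl and at 18.6, 17.3 and 18.4 FPKM in LKO livers, with every LKO value inside the Ctrl range. Its log2 fold change was -0.00, with a 95% interval from -0.30 to 0.29. The annotated span of *Srebf2* also holds *Mir33* on the same strand. *Insig1* was at 169.8, 125 and 123 FPKM in Ctrl and at 123, 44.7 and 51.0 FPKM in LKO livers. LKO 2 and LKO 3 were well under the Ctrl range and LKO 1 at its lower edge, so that the groups did not overlap, as for 8.1% of all liver genes with LKO lower. The mean level fell from 139 ± 26.6 to 72.8 ± 43.3 FPKM (SD, n = 3 each), a log2 fold change of -1.06 (standard error 0.36, 95% interval -1.91 to -0.21) with an adjusted p of 0.0491 from limma. *Insig1* was the only one of the 7 genes past the adjusted criterion, which 27.4% of all liver genes passed and 3.5% passed as lower. The call rested on each of 5 libraries: without Ctrl 1, Ctrl 2, Ctrl 3, LKO 2 or LKO 3 the log2 fold change of *Insig1* was -0.91, -1.13, -1.14, -0.79 and -0.88, with limma adjusted p-values of 0.101 to 0.150, and without LKO 1 it was -1.51 (adjusted p = 1.6e-04). Over all alternatives its adjusted p ran from 8.6e-05 to 0.150.

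*Stard4* in liver was at 19.5, 20.8 and 17.4 FPKM in Ctrl and at 18.5, 9.06 and 8.34 FPKM in LKO mice. LKO 2 and LKO 3 lay under the Ctrl range and LKO 1 inside it. The log2 fold change of -0.73 (standard error 0.27) had an unadjusted p of 0.0304 and an adjusted p of 0.0626 from limma. Without LKO 1, the LKO liver with the most remaining *Crif1* transcript, the log2 fold change of *Stard4* was -1.06 with a limma adjusted p of 1.7e-04, in a range of 1.7e-04 to 0.185 over all alternatives. Without replicate 1 of both genotypes, a setting chosen after the values were seen, it was -1.05 (adjusted p = 4.9e-04). Either setting gave 2 of the 7 genes past the adjusted criterion, *Insig1* and *Stard4*, whereas the count was 0 without any other single liver library. The part of the remaining *Crif1* level in these values was not tested.

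All liver values stood against a positive shift of the whole table. The median log2 fold change of all genes tested in liver was 0.33, against -0.00 for the 7 genes. Scaling the libraries to their median ratios moved these medians to 0.02 and -0.35. After it all 7 log2 fold changes in liver were negative: *Hmgcs1* -0.13, *Sqle* -0.06 and *Fdps* -0.19 changed sign, and *Srebf2* came to -0.35 (limma adjusted p = 0.0919), *Idi1* to -0.51, *Stard4* to -1.06 and *Insig1* to -1.42 (adjusted p = 0.0488). On that scale the same 2 of the 7 genes passed the unadjusted criterion as lower, and so did 8.05% of all liver genes, with 11.3% as higher.

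**Figure D2:**
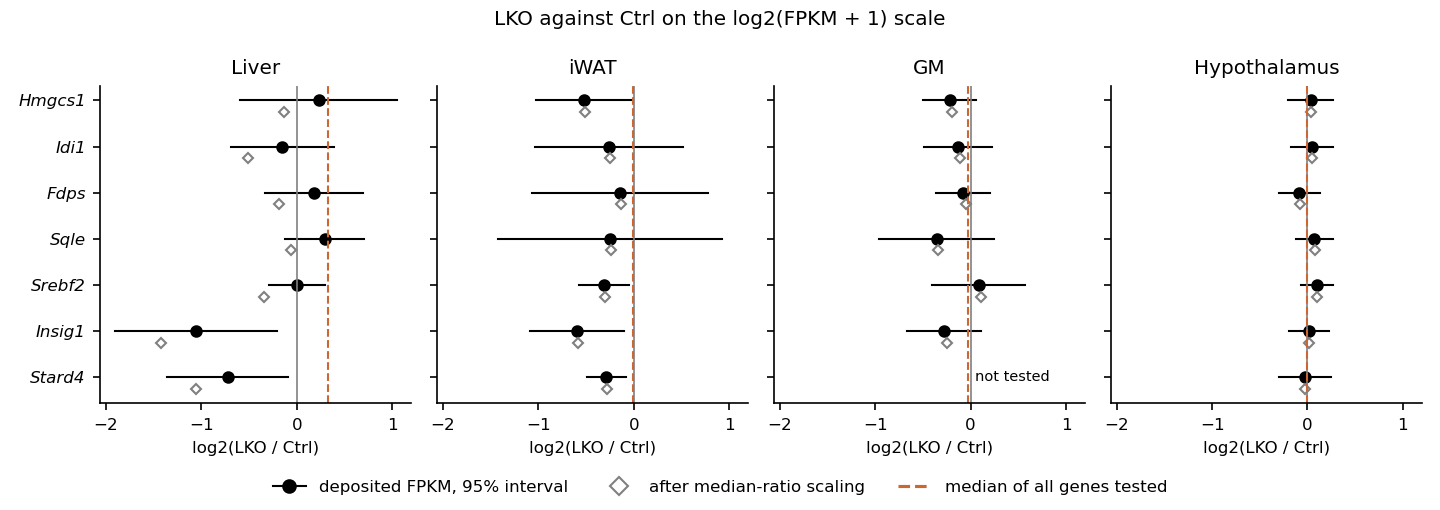
Log2 fold change of LKO against Ctrl mice on the log2(FPKM + 1) scale for the 7 genes, with 1 panel per tissue. Filled circles with lines are limma estimates with 95% intervals (3 against 3 libraries), diamonds the values after median-ratio scaling, and the dashed line the median of all genes tested. All 7 circles lie left of 0 in iWAT, whereas *Insig1* (-1.06) and *Stard4* (-0.73) stand apart in liver and the hypothalamus values lie between -0.09 and 0.10.

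In iWAT, where albumin-driven Cre is not expected to act, all 7 transcripts had a lower mean in LKO mice, with a median log2 fold change of -0.29 against -0.01 over all 12288 genes tested there. *Insig1* was the only one past the unadjusted criterion, and none passed the adjusted one. Of all iWAT genes, 3.25% passed the unadjusted criterion, 1.29% as lower, and 0 the adjusted one. The LKO libraries were all lower than the Ctrl libraries for 4 of the 7 genes, *Hmgcs1*, *Insig1*, *Srebf2* and *Stard4*, as for 11% of all genes tested. After median-ratio scaling the 7 values stayed negative, with a median of -0.28. With single libraries left out, those of *Sqle* and *Fdps* did not stay negative throughout, as given in the closing section. The call of *Insig1* was lost without Ctrl 3 (log2 fold change -0.42) or LKO 2 (-0.43). The count past the unadjusted criterion was 0 without LKO 2, 2 without Ctrl 2 and 3 without LKO 1, with none of the 7 past the adjusted one in limma.

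*Hmgcs1* in iWAT was at 104, 70.2 and 72.6 FPKM in Ctrl and at 68.4, 43.9 and 58.2 FPKM in LKO mice, a log2 fold change of -0.52 (standard error 0.21, limma adjusted p = 0.308). *Insig1* was at 103, 100.1 and 148 FPKM in Ctrl and at 90.5, 59.8 and 80.5 FPKM in LKO mice, a log2 fold change of -0.60 (standard error 0.20) with an unadjusted p of 0.0239 and an adjusted p of 0.254 from limma. In both genes LKO 2 was the lowest of the 6 libraries. *Srebf2* was at 19.4, 15.5 and 16.8 FPKM in Ctrl and at 14.8, 12.2 and 14.0 FPKM in LKO mice, and its log2 fold change was -0.31 (limma adjusted p = 0.264). *Stard4*, low in this tissue, was at 2.52, 2.45 and 2.52 FPKM and at 2.05, 1.76 and 1.80 FPKM. The Ctrl values of *Stard4* were within 1.03 times of each other, and its log2 fold change of -0.29 (standard error 0.08) had the smallest p of the 7 in iWAT, 0.0125 unadjusted and 0.204 adjusted in limma.

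The 3 enzymes later in the sequence had overlapping groups in iWAT. *Idi1* was at 15.9, 8.90 and 9.10 FPKM in Ctrl and at 14.6, 7.22 and 6.72 FPKM in LKO mice, *Fdps* at 49.0, 27 and 27.6 and at 52.6, 25.8 and 19.7 FPKM, and *Sqle* at 11, 5.20 and 5.73 and at 13.3, 3.98 and 3.19 FPKM. In all 3 genes replicate 1 was well above replicates 2 and 3 in both genotypes, and for *Sqle* the highest LKO library was 4.17 times the lowest. Their log2 fold changes were -0.26, -0.14 and -0.25, with limma adjusted p-values of 0.742 to 0.892. The sums of 4 adipocyte markers were 19613 to 23110 FPKM in Ctrl and 23803 to 25364 FPKM in LKO mice beside these values. The sums of some other marker lists also differed without overlap in iWAT, at much lower levels. The 5 hepatocyte markers summed to 14.8 to 26.5 FPKM in Ctrl and 37.1 to 55.0 in LKO mice. Most of this was *Alb* (12.8 to 23.8 and 35.2 to 49.2 FPKM), and the groups overlapped for the other listed hepatocyte markers. The 5 oligodendrocyte markers summed to 58.5 to 76.7 and 83.6 to 117 FPKM. Most of this was *Mbp* (52.7 to 70.4 and 76.3 to 108 FPKM), while *Mog* and *Mobp* stayed at or under 0.051 FPKM. Each of these sums rests mainly on a single transcript and does not by itself show a cell type. The epithelial sums overlapped, at 0.041 to 0.428 and 0.23 to 8.79 FPKM. The part of adipocytes, and of any cells of these other types, in the values was not tested.

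Liver and iWAT were compared in a limma fit of their 12 libraries, in which the effect in iWAT was subtracted from that in liver. None of the 7 differences had an adjusted p under 0.05, whereas 33.3% of the 10066 genes tested in both tissues did. That of *Hmgcs1* was 0.75 on the log2 scale (95% interval -0.23 to 1.73, limma adjusted p = 0.203), from 0.23 in liver and -0.52 in iWAT. *Insig1*, lower in both tissues, gave -0.46 (95% interval -1.47 to 0.54, adjusted p = 0.439), and *Stard4* -0.44 (-1.11 to 0.23, adjusted p = 0.272). For *Srebf2* the difference was 0.31 (-0.06 to 0.68, adjusted p = 0.166), for *Sqle* 0.54 (-0.68 to 1.77, adjusted p = 0.460), for *Fdps* 0.32 (-0.72 to 1.37, adjusted p = 0.613) and for *Idi1* 0.11 (-0.83 to 1.05, adjusted p = 0.858). The intervals are wide, so that a difference of 1 on the log2 scale between the tissues lies inside that of each gene but *Srebf2* in at least 1 direction. After median-ratio scaling none of the 7 passed either, and the difference was 0.37 for *Hmgcs1*, 0.15 for *Sqle*, -0.85 for *Insig1* (limma adjusted p = 0.265) and -0.83 for *Stard4* (adjusted p = 0.143). Without liver LKO 1 the count of differences past an adjusted p of 0.05 was 2 (*Insig1* -0.91 and *Stard4* -0.77), and without iWAT LKO 1 it was 1 (*Sqle* 1.09). Without replicate 1 of both genotypes, a setting chosen after the values were seen, it was 3 (*Hmgcs1* 0.80, *Sqle* 0.86 and *Stard4* -0.72).

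In GM, where their levels were lowest, the groups overlapped for all 7, whereas they did not for 11.6% of all genes tested there. The 6 genes tested had log2 fold changes from -0.36 (*Sqle*) to 0.08 (*Srebf2*), 5 of them negative, and none passed the unadjusted criterion, which 0.901% of all genes tested in GM did. The smallest unadjusted p was 0.106, for *Hmgcs1*. Without LKO 1 the count was 1 (*Sqle*, -0.61). *Sqle* then passed the filter only through the Ctrl group (1.10 to 2.27 FPKM, against 0.637 and 0.610 in LKO 2 and LKO 3). It thus had to differ, and the value is given as a description. *Insig1* was at 8.89, 6.36 and 6.22 FPKM in Ctrl and at 6.81, 4.62 and 5.73 FPKM in LKO mice (log2 fold change -0.28, limma adjusted p = 0.828). *Hmgcs1* was at 13.8, 11.8 and 11.4 FPKM in Ctrl and at 12, 8.87 and 10.7 FPKM in LKO mice (log2 fold change -0.22, adjusted p = 0.799). *Stard4* reached 1 FPKM in too few GM libraries to be tested, at 0.836 to 1.28 FPKM in Ctrl and 0.807 to 1.12 FPKM in LKO mice.

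In hypothalamus the libraries of a group lay close together. The highest was at most 1.34 times the lowest, for *Stard4* in Ctrl, whereas this ratio reached 2.74 in liver (*Insig1* in LKO), 2.88 in GM and 4.17 in iWAT (*Sqle* in LKO in both). Log2 fold changes ran from -0.09 for *Fdps* to 0.10 for *Srebf2*, with standard errors of 0.07 to 0.11, and the groups overlapped for all 7, against no overlap for 9.7% of all genes tested. None passed the unadjusted criterion, against 0.333% of all genes tested there, and the smallest unadjusted limma p was 0.213, for *Srebf2*. *Srebf2*, at its highest in this tissue, was at 54.0, 52.5 and 46.7 FPKM in Ctrl and at 57.0, 53.6 and 53.3 FPKM in LKO mice. The 95% intervals of the 7 log2 fold changes stayed between -0.30 and 0.27, so that a 1.5-fold change on the log2(FPKM + 1) scale, in either direction, lay outside each of them.

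Between libraries of the same group, replicate 1 held the highest value of the 7 genes in 50 of 56 cases, and in 39 of 42 outside hypothalamus. The exceptions were *Sqle* (Ctrl 3) and *Stard4* (Ctrl 2) in Ctrl liver, *Insig1* (Ctrl 3) in Ctrl iWAT, and in hypothalamus *Sqle* (Ctrl 2) and *Fdps* (Ctrl 3) in Ctrl and *Fdps* (LKO 3) in LKO mice. In LKO livers all 7 genes were highest in LKO 1, where 17.4% of all genes tested were, and in LKO iWAT all 7 were highest in LKO 1, where 29.5% of all genes were. In Ctrl the count was 5 of 7 in liver (47% of all genes) and 6 of 7 in iWAT (28.2% of all genes). In GM the 6 genes tested were highest in replicate 1 in both genotypes, and so were 55.5% of all genes in Ctrl and 70.5% in LKO mice. In hypothalamus it was 5 of 7 and 6 of 7, against 39.5% and 37.5% of all genes.

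The same libraries were high for the rest of the pathway. Of 25 other genes of mevalonate and sterol synthesis and SREBP processing, 17 in Ctrl liver, 17 in LKO liver, 15 in Ctrl iWAT and 18 in LKO iWAT were highest in replicate 1. Of the genes tested in liver, iWAT and GM, replicate 1 was highest in all 6 groups for 4 of 6 members (*Hmgcs1*, *Idi1*, *Fdps* and *Srebf2*), for 8 of 24 other pathway genes (*Acat2*, *Mvk*, *Pmvk*, *Mvd*, *Cyp51*, *Nsdhl*, *Sc5d* and *Dhcr7*, named after their values were seen) and for 1.03% of all 9216 genes. The mean log2(FPKM + 1) of the 7 genes in replicate 1 stood 0.26 to 0.47 above its group mean in liver, iWAT and GM, and 0.06 and 0.12 above it in hypothalamus. Depth was highest in replicate 1 in liver and iWAT (8.09 gigabases in liver Ctrl 1 and 7.95 in iWAT Ctrl 1), but it was lowest of its group in hypothalamus Ctrl 1, with 4.47, and between the others in both GM groups. The part of depth, and of anything else that same-numbered mice or libraries may have shared, was not tested.

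**Figure D3:**
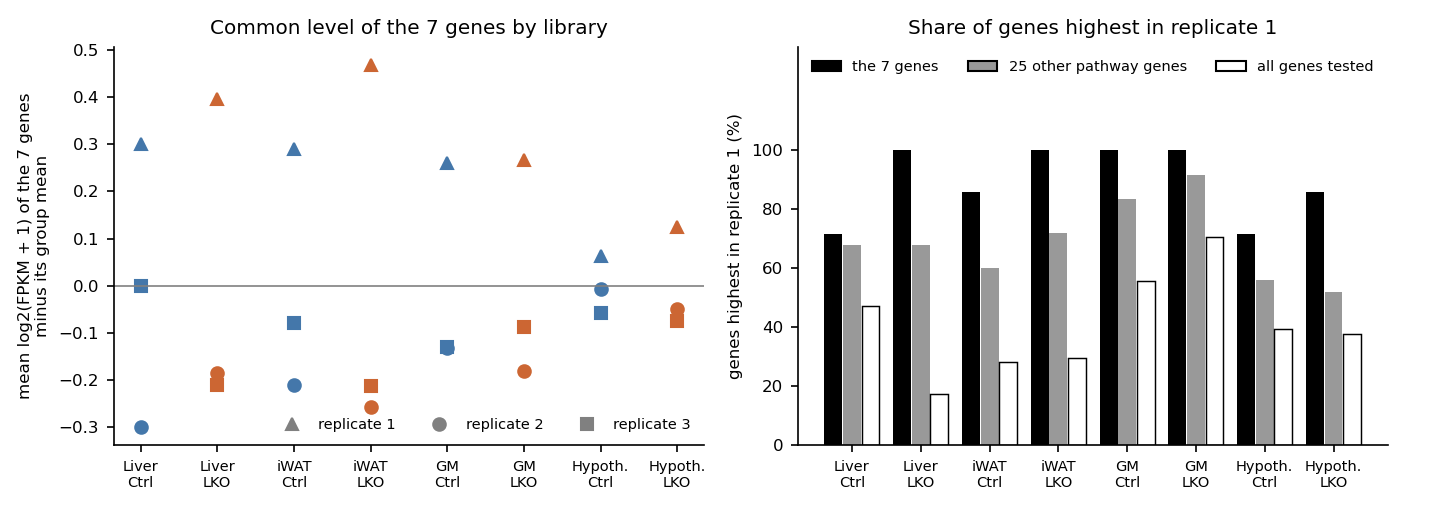
Left, mean log2(FPKM + 1) of the 7 genes in each library minus the mean of its group, for 8 groups of 3 libraries (triangle, replicate 1; circle, replicate 2; square, replicate 3). Right, percentage of the 7 genes (black, 6 in GM), of the other pathway genes (grey, 25, or 24 in GM) and of all genes tested (white) whose highest value in the group was in replicate 1. Replicate 1 stands highest in all 8 groups on the left, and the black bars exceed the white ones in each group, by most in LKO liver where all 7 genes and 17.4% of all genes were highest in LKO 1.

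As a description, each gene tested in all 4 tissues was compared with the mean of the 6 members tested there, *Stard4* being left out, over the 24 libraries after centring within each tissue. The points share the depth of each library, and no p is given. The 5 genes most like this mean outside the 7, of 9022, were *Cyp51* (Pearson r 0.93), lanosterol demethylase, *Dhcr7* (0.92), the final reductase of one branch of the pathway, *Zadh2* (0.90), *Fdft1* (0.87), squalene synthase, and *Acat2* (0.87), the cytosolic thiolase before *Hmgcs1*. The span of *Fdft1* overlaps *Ctsb* on the opposite strand, and the library kit is taken as not keeping strand. Each member was also set against the mean of the other members tested in all tissues. *Idi1* followed them most closely (0.92), then *Hmgcs1* (0.78), *Fdps* (0.78), *Sqle* (0.74) and *Srebf2* (0.67), and *Insig1* least (0.38).

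The rest of the pathway in liver was read from lists. Of 5 other mevalonate and isoprenoid enzymes, 1 fell past the unadjusted criterion and none rose, beside 3.75% and 25.2% of all liver genes. *Mvd*, the decarboxylase of mevalonate diphosphate, went from 16.3 ± 4.0 to 8.68 ± 1.92 FPKM (SD, n = 3), -0.83 on the log2 scale (limma adjusted p = 0.0200), while *Mvk* (-0.44) and *Pmvk* (-0.28) did not pass. Of 11 enzymes from squalene to cholesterol, 1 rose and 1 fell. *Tm7sf2*, a sterol reductase whose span overlaps *Vps51* on the same strand, went from 79.5 ± 5.38 to 45.6 ± 15.1 FPKM, -0.84 on the log2 scale (adjusted p = 0.0220 in limma). The list medians of -0.28 and -0.09 stood under the 0.33 of all liver genes. After median-ratio scaling none of the 16 rose and 4 fell, beside 11.3% and 8.05% of all liver genes.

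Of 9 genes of SREBP processing and sterol sensing, 4 rose in LKO livers and none fell past the unadjusted criterion, with a list median of 0.49, beside 25.2% of all liver genes as higher and 3.75% as lower. *Rnf145*, a sterol-responsive ubiquitin ligase, went from 4.86 ± 0.560 to 11.5 ± 1.07 FPKM, 1.09 on the log2 scale (limma adjusted p = 0.00162). *Erlin1*, an endoplasmic reticulum protein that binds SCAP and INSIG, rose from 13.3 ± 1.21 to 30.7 ± 5.68 FPKM (1.14, adjusted p = 0.00237 in limma). *Tmem97*, an endoplasmic reticulum protein linked to sterol traffic, rose from 48.1 ± 6.09 to 98.2 ± 28.9 FPKM (0.98, adjusted p = 0.0140 in limma). The paralog of *Insig1*, *Insig2*, did not pass in liver (108 ± 9.38 and 136 ± 30.1 FPKM, log2 fold change 0.30, limma adjusted p = 0.178). After median-ratio scaling the log2 fold changes of the 3 risers stayed positive, at 0.77, 0.79 and 0.62, and that of *Insig2* changed sign (-0.06), with 3 of the 9 genes higher and 1 lower past the unadjusted criterion, beside 11.3% and 8.05% of all liver genes.

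Of 10 tested genes of sterol uptake, trafficking and esterification, 6 rose and none fell, with a median of 0.69, beside 25.2% of all liver genes as higher and 3.75% as lower. After median-ratio scaling 1 of the 10 was higher, beside 11.3% of all liver genes. The count of 6 includes *Soat1*, named after its values were seen, which was tested only through the LKO group (0.464 ± 0.0890 FPKM in Ctrl and 1.45 ± 0.333 in LKO livers), so it had to differ and is given as a description. *Soat2*, which esterifies cholesterol in hepatocytes, rose from 22.1 ± 4.97 to 44.7 ± 10.4 FPKM (SD, n = 3). On the log2 scale the rise was 0.98 for *Soat2*, 0.92 for *Gramd1c*, a sterol transfer protein, and 0.90 for *Npc2*, the lysosomal sterol carrier, with limma adjusted p-values of 0.0140, 0.0163 and 0.00319. Of 8 genes of the LXR response and sterol efflux, 1 was higher and 2 were lower past the unadjusted criterion. The partners *Abcg5* and *Abcg8*, which export sterol into bile and overlap on opposite strands, fell by 1.04 and 1.07 on the log2 scale (limma adjusted p = 0.0553 and 0.0427). *Abcg1*, a sterol exporter of macrophages, went from 0.891 ± 0.179 to 2.24 ± 0.424 FPKM and was the higher one. It reached the limit of 1 FPKM in 3 libraries only through the LKO group, so it had to differ and is given as a description, beside the higher macrophage sums given above. Of 9 genes of fatty acid synthesis, 2 rose and 2 fell. *Srebf1*, which encodes SREBP-1, fell by 1.29 and *Thrsp* by 1.93, and *Me1*, malic enzyme, rose by 0.84 on the log2 scale. After median-ratio scaling both lists had 2 genes lower and none higher past the criterion.

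In iWAT, among the 25 other genes of synthesis and SREBP processing 3 fell past the unadjusted criterion, none rose, and none passed the adjusted one, beside 1.29% of all iWAT genes as lower, 1.95% as higher and 0 by the adjusted one. The count of 3 became 0 without Ctrl 1, LKO 2 or LKO 3, 1 without Ctrl 3 and 7 without LKO 1. *Sc5d*, a sterol desaturase, went from 48.6 ± 15.9 to 26.8 ± 11.2 FPKM (SD, n = 3), -0.86 on the log2 scale (limma adjusted p = 0.277), *Fdft1* from 18.4 ± 4.81 to 11.4 ± 4.4 FPKM (-0.67, adjusted p = 0.323), and *Msmo1*, a sterol monooxygenase, from 14.5 ± 0.808 to 9.40 ± 3.78 FPKM (-0.63, adjusted p = 0.275 in limma). The groups overlapped for *Sc5d* and *Fdft1*. *Rnf145* was at 20.5 ± 0.516 and 13.9 ± 0.479 FPKM, without overlap of the groups (log2 fold change -0.53, under the fold limit, limma adjusted p = 0.0852), and *Insig2* at 19.9 ± 1.33 and 26.4 ± 0.634 FPKM, without overlap in the other direction (0.39, adjusted p = 0.109). Of the remaining lists, *Gramd1b* was higher past the unadjusted criterion (log2 fold change 0.75), and *Srebf1* (-0.65) and *Pnpla3* (-0.98) were lower. None of the 25 genes passed in hypothalamus, nor any of the 24 tested in GM, by the unadjusted criterion of limma. Of the remaining lists, 1 gene passed it in GM, again *Gramd1b* (2.63 ± 0.681 FPKM in Ctrl and 4.50 ± 0.624 in LKO mice, 0.61 on the log2 scale, adjusted p = 0.516 in limma), and none in hypothalamus.

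**Figure D4:**
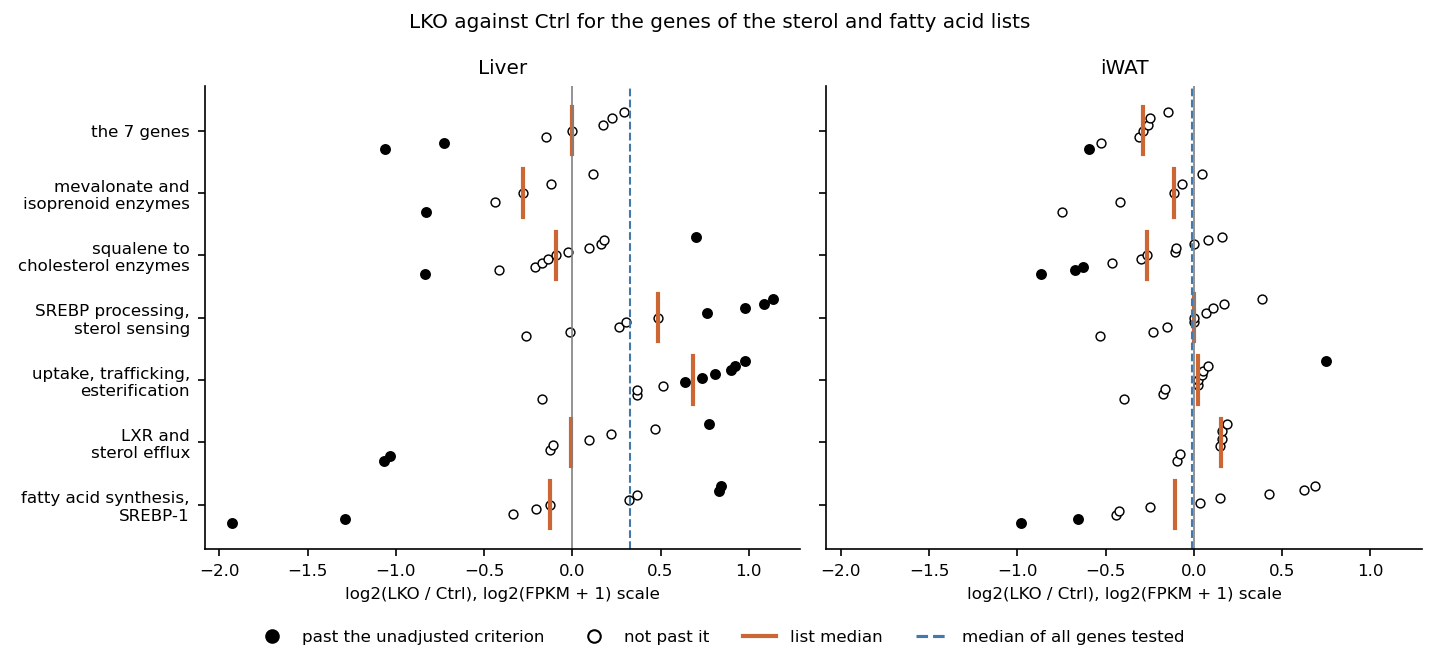
Log2 fold change of LKO against Ctrl mice in liver (left) and iWAT (right) for each tested gene of the 7 and of 6 further lists, spread vertically by rank within a list. Filled points pass the unadjusted criterion, thick bars are list medians and the dashed line is the median of all genes tested (0.33 in liver and -0.01 in iWAT). In liver the SREBP processing and the uptake lists have medians of 0.49 and 0.69, right of the dashed line, and the medians of the other lists lie left of it.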

How the data were processed

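Total RNA libraries were made with a TruSeq RNA kit, taken here as not keeping strand, and sequenced as paired ends. Per the submitters' processing notes, FastQC 0.11.5, Trimmomatic 0.32, HISAT2 2.0.5, Bowtie2 2.2.6, STAR 2.5.2b and StringTie 1.3.3b were used with the mm10 build, without stated roles. The authors deposited FPKM per gene in 1 joined table, and per library the mean coverage signal, FPKM and TPM of each gene. The deposited FPKM are scaled to the fragments of each library, the deposited TPM to a fixed sum, and the deposited coverage not for depth. No scaling between libraries is stated. The joined FPKM were used here. FPKM and coverage gave the depth (median 5.19 gigabases). The values are not counts, so counting error is not given.

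Each tissue was fitted with limma 3.58.1 in R 4.3.3 (lmFit, eBayes with trend) on log2(FPKM + 1), which understates changes of low transcripts, for genes with at least 1 FPKM in 3 of 6 libraries. The unadjusted criterion was a 1.5-fold change with p under 0.05, the fold limit of the study, and the adjusted criterion used the Benjamini-Hochberg p over all genes tested. All tests are two-sided. Nothing in the labels says that libraries came from separate mice, and p-values measure the spread between these libraries. The fits were tested on simulated data. Of each list, up to 3 genes in liver and 2 in iWAT with the largest change were named, with 5 genes most like the members. Marker lists were summed per library. The members and lists were chosen with earlier results of these data known. Some genes of the pathway are not reported here. Alternatives are given in the closing section. Python 3.11.15 with numpy 2.4.6, pandas 2.3.3 and matplotlib 3.10.9 served for reading tables and for plots.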

Additional observations from a re-analysis of the deposited data

Results flagged for a closer look

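Of 20 named genes of the lists outside the 7 that were tested in both tissues, 6 had an adjusted p under 0.05 for the difference of the LKO effect between liver and iWAT, beside 33.3% of all genes tested. The 20 had been named for the size of their change in either tissue, so the count says nothing particular about them. The value given is the log2 fold change in liver minus that in iWAT. *Rnf145* (1.62, adjusted p = 1.1e-04) had no overlap of the groups in either tissue, with the LKO libraries all higher in liver and all lower in iWAT. For *Erlin1* it was 1.29 (adjusted p = 0.00174), for *Tmem97* 1.21 (adjusted p = 0.0101), for *Npc2* 0.82 (adjusted p = 0.0107) and for *Tm7sf2* -1.0 (adjusted p = 0.0200). *Soat1*, a sterol esterifying enzyme, gave 1.13, but in liver it passed the filter on low values only through the LKO group and had to differ, so no p is given. After median-ratio scaling *Npc2* had a difference of 0.45 and a limma adjusted p of 0.0873, and *Rnf145*, *Erlin1*, *Tmem97* and *Tm7sf2* had an adjusted p of at most 0.0257.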

How the results depend on the processing

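Of 759 values recomputed under alternatives, 655 kept their direction and their side of the threshold. The count of the 7 genes past the adjusted criterion in liver, 1 as reported, was 0 with no filter on low values, with a mean of at least 5 FPKM, with the deposited TPM, with quantile normalization and with ordinary variances, and 2 with all 24 libraries in a single fit and without replicate 1 of both genotypes. The unadjusted count in liver, 2 as reported, was 1 with TPM, 0 with ordinary variances and 1 with a fold limit of 2, and the iWAT count, 1 as reported, was 0 under each of these 3. Of the other pathway genes, 7 in liver became 2 with the fold limit of 2, and 3 in iWAT became 0 with it and with ordinary variances and 5 without replicate 1 of both genotypes. The count of differences between liver and iWAT, 0 as reported, was 3 without replicate 1 of both genotypes.

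In liver, median-ratio scaling turned *Hmgcs1* to -0.13, *Sqle* to -0.062 and *Fdps* to -0.19, and *Srebf2* became 0.12 with TPM and 0.039 without replicate 1 of both genotypes. For liver minus iWAT, median-ratio scaling gave -0.28 for *Idi1*, -0.066 for *Fdps* and -0.064 for *Srebf2*, and quantile normalization -0.19 for *Idi1* and -0.070 for *Srebf2*. In hypothalamus, leaving out replicate 1 of both genotypes gave -0.028 for *Hmgcs1*, -0.019 for *Idi1* and 0.042 for *Stard4*. The cause of these changes was not tested.

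With 1 library left out at a time, the counts ran from 0 to 2 for the 7 genes in liver under either criterion, 0 to 3 in iWAT, 0 to 1 in GM, 0 to 2 for the differences between liver and iWAT, and 0 to 7 for the other pathway genes in iWAT. The 1 in GM was *Sqle* without LKO 1, which then passed the filter on low values only through the Ctrl group. Log2 fold changes that changed sign ran in liver from -0.10 to 0.57 (*Hmgcs1*), -0.35 to 0.032 (*Idi1*), -0.0081 to 0.39 (*Fdps*) and -0.12 to 0.056 (*Srebf2*). In iWAT they ran from -0.80 to 0.088 (*Sqle*) and -0.54 to 0.15 (*Fdps*). In GM they ran from -0.24 to 0.00051 (*Idi1*), -0.17 to 0.034 (*Fdps*) and -0.12 to 0.24 (*Srebf2*). In hypothalamus they ran from -0.069 to 0.088 (*Hmgcs1*), -0.0057 to 0.11 (*Sqle*), -0.048 to 0.11 (*Idi1*), -0.043 to 0.085 (*Insig1*) and -0.095 to 0.089 (*Stard4*). The difference of *Idi1* between liver and iWAT ran from -0.15 to 0.43.

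Fits with the replicate number as a block gave 2 of the 7 genes past the adjusted criterion in liver (*Stard4* with a limma adjusted p of 0.0463), where 27.7% of all genes passed, and 1 difference between liver and iWAT (*Hmgcs1*, adjusted p = 0.0392). The other counts over the 7 genes, and those over the 25 other pathway genes, moved by no more than 1.5 times. In iWAT the fatty acid list had 2 genes higher and 2 lower with the block, against 0 and 2 without it, and the mevalonate list 1 lower against 0. Pairing was taken as shown where the deviations of all 3 same-numbered Ctrl and LKO libraries of a tissue correlated with r over 0.1. No tissue met this (r from -0.13 to 0.35 in all, 0.028 to 0.15 in liver and 0.050 to 0.35 in GM), and not every library correlated best with its own number, so the numbers were not taken as pairing.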
